A study of Aspergillus niger with 11 samples.

Results

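A set of 69 genes of Aspergillus niger whose mean transcript level was highest at the 24 h sampling of an oxygen-limited fermentation was examined. The genes were chosen on their levels in FPKM, which relates the fragments of a gene to its transcript length and to the mapped fragments of its library. A gene was kept when its largest group mean was at least 100 FPKM and its 24 h mean was at least 75% above both the 18 h and the 42 h mean. In addition, its 42 h and 66 h means had to be under 2 times its 18 h mean. All ratios were taken after 10 FPKM had been added to each mean. Of 10445 genes in the files, 1844 reached the level. Of these, 278 were past the ratio of 24 h to 18 h, and 81 of the 278 were also past the ratio of 24 h to 42 h. The limits on the late levels removed 12 of these 81. In the other 197 of the 278 the 24 h mean was not that far above the 42 h mean, and these are called genes with a held rise. The measured values therefore chose the genes, and the size of the peak is a description of the choice and is not tested.

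RNA was sequenced from 11 libraries of strain DS03043. The mould was fed-batch cultured in a 5 L fermenter stirred at 375 rpm and aerated at 1 vvm, at 34 °C, pH 4.5 and an overpressure of 0.05 MPa. The labels place 3 libraries each in the exponential phase, the early limited phase (also called transitional) and the middle limited phase, and 2 in the late limited phase. The series' design speaks of triplicates, and a further late library was not analysed here. The sampling times of 18, 24, 42 and 66 h are given for the series and were matched to these phases in chronological order. Oxygen limitation is the treatment label of every library, the exponential phase included, so that time, growth phase and oxygen supply cannot be told apart. No label ties the replicates to cultures of their own, and the spread on which the p-values rest may be a technical one. In RNA of a whole culture, fewer cells that express a gene and less RNA per cell cannot be told apart.

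Aspergillus niger is an aerobic mould that is grown in stirred tanks for enzymes and organic acids. Oxygen is the final electron acceptor of its respiratory chain and a substrate in the synthesis of ergosterol and unsaturated fatty acids. In a fed-batch culture, the demand of the growing mycelium can come to exceed the rate at which oxygen passes into the broth, and growth is then held back by that rate. None of the 69 genes carried a symbol in the RefSeq gene table of assembly ASM285v2, against 102 of all genes in the files, and 67 of the 69 were listed in it. The genes are named by locus, and no role is given to them.

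The most abundant gene of the set was An07g10200. Its 18 h libraries stood at 5136, 6371 and 6584 FPKM, and those of 24 h had 11159, 11357 and 13198 FPKM. It was at 5189, 5179 and 4939.9 FPKM at 42 h and at 3781 and 4791 FPKM at 66 h. All 3 of its 24 h libraries were above every other library, and both 66 h libraries were below every 18 h library. Its means were 6030.4 ± 782 FPKM at 18 h and 11905 ± 1124 FPKM at 24 h (SD, n = 3 each), a ratio of 1.97, and its 24 h mean was 2.33 times its 42 h mean.

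An05g02330 was the next in abundance. Its 18 h libraries were at 2857, 3067 and 3404 FPKM and its 24 h libraries at 5313, 6413 and 6826 FPKM. Its 42 h libraries were at 3873, 2980.5 and 3429 FPKM and its 66 h libraries at 2752 and 3001 FPKM. The levels at 18, 42 and 66 h overlapped, and the 24 h libraries stood above all of them. The 42 h mean was 1.10 times and the 66 h mean 0.93 times the 18 h mean.

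An11g07340 behaved differently after the peak. It was at 2160.4, 2369 and 2473 FPKM at 18 h and at 4073, 5094 and 5141 FPKM at 24 h. At 42 h it was at 1049, 951 and 963 FPKM, and at 66 h at 779 and 668 FPKM. All 4 times were separate here, since every 42 h library was below every 18 h library and both 66 h libraries were lower still. The 24 h mean was 2.04 times the 18 h mean and 4.79 times the 42 h mean, and the 66 h mean was 0.31 times the 18 h mean.

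An11g07350, the next locus on the same scaffold, followed An11g07340. Its 18 h libraries were at 933, 866 and 857 FPKM and its 24 h libraries at 1322, 1821 and 1764 FPKM. It was at 369, 417 and 436 FPKM at 42 h and at 276 and 258 FPKM at 66 h. The libraries of the 4 times again did not overlap, and the 66 h mean was 0.31 times the 18 h mean, as for its neighbour.

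An16g05330 was at 439.9, 494 and 559 FPKM at 18 h and at 833, 1087 and 1066 FPKM at 24 h. It then stood at 268, 163 and 100.5 FPKM at 42 h and at 87.5 and 154 FPKM at 66 h. The 24 h libraries were above all others, and every later library was below every 18 h library. The 24 h mean was 5.37 times the 42 h mean.

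An07g10180 was at 1801, 1909.9 and 1723 FPKM at 18 h, 2666, 3208 and 3776 FPKM at 24 h, 1394, 1281 and 1273 FPKM at 42 h, and 836 and 1696 FPKM at 66 h. Its 24 h libraries were above all others, while the 66 h libraries lay far apart from each other. An01g13680 was at 626, 419 and 631 FPKM at 18 h, 1245, 792 and 1072 FPKM at 24 h, 417, 551 and 473 FPKM at 42 h, and 609 and 625 FPKM at 66 h. Its lowest 24 h library was above the highest of the other times, and the 66 h libraries were at the 18 h level. An07g07350 was at 624, 1315 and 810.3 FPKM at 18 h, 1176, 2015 and 1948 FPKM at 24 h, 635, 729 and 892 FPKM at 42 h, and 900.1 and 660.1 FPKM at 66 h. Here the groups overlapped, since 24 h replicate 1 lay below 18 h replicate 2.

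**Figure D1:**
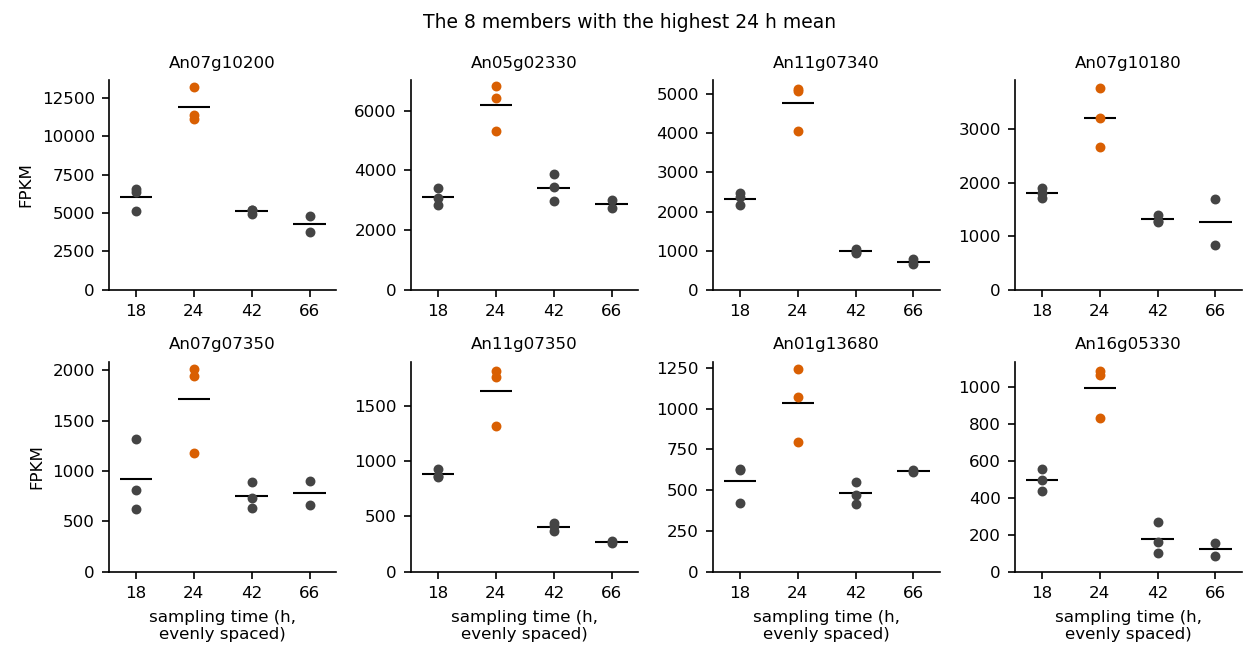
FPKM in every library (points, 24 h in orange) of the 8 genes of the set with the highest 24 h mean, with the group mean as a line, against the sampling time on an evenly spaced axis that starts at 0 FPKM on the y axis. The 24 h libraries are above all others in 7 of the 8 genes, and An07g07350, where 24 h replicate 1 is at 1176 FPKM and 18 h replicate 2 at 1315 FPKM, is the exception.

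Over the set, the 24 h mean ran from 103 to 11905 FPKM with a median of 203 FPKM. It was at least 1000 FPKM in 7 genes, from 300 to 1000 FPKM in 16 and under 300 FPKM in 46. The ratio of 24 h to 18 h ran from 1.7505 to 12.02 with a median of 2.11, and that of 24 h to 42 h from 1.76 to 29.0 with a median of 2.91. Both maxima are set against groups listed at 0, so that the added 10 FPKM fixes their size, and they are not folds. Over the 67 genes above 0 at 18 h the highest ratio of 24 h to 18 h was 10.02, and over the 61 above 0 at 42 h the highest ratio of 24 h to 42 h was 12.2. The smaller of both ratios was at least 3 in 6 genes, 2 to 3 in 32 and under 2 in 31. Nearest inside it were An18g03810, An16g05540 and An18g05780, with smaller ratios of 1.7505, 1.759 and 1.7615. Nearest outside it were An04g01820, An08g11330 and An01g08850, with 1.7476, 1.7466 and 1.7446. At the limit on the level, An18g05780, An13g00530 and An12g07700 were inside with 24 h means of 103, 103 and 104 FPKM, and An16g03340, An07g07410 and An15g01540 were outside with 99.9, 98.5 and 98.4 FPKM.

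**Figure D2:**
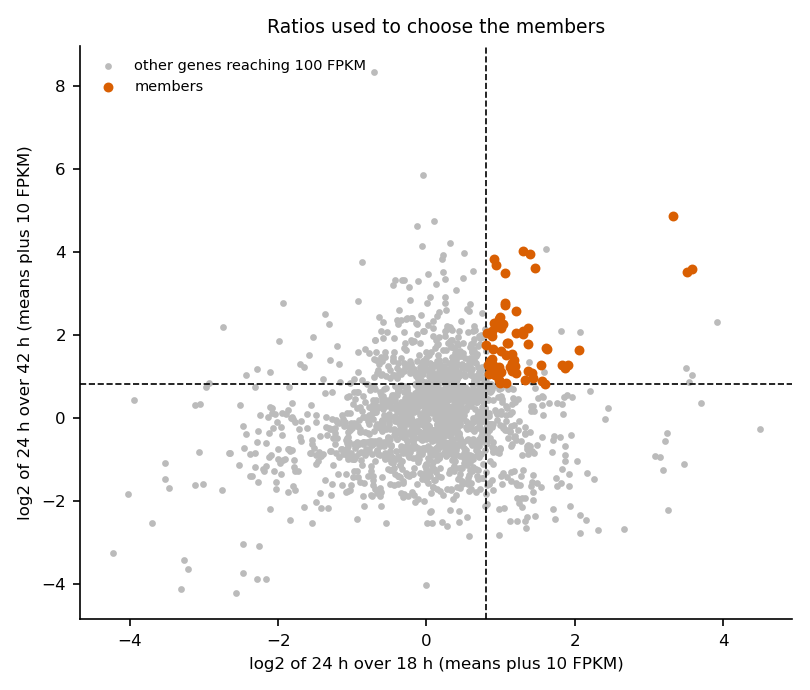
For each of 1844 genes with a largest group mean of at least 100 FPKM, the log2 ratio of the 24 h to the 18 h mean (x axis) and of the 24 h to the 42 h mean (y axis), both after adding 10 FPKM, with the 69 chosen genes in orange and the limit of 75% above dashed. The chosen genes spread upwards and to the right of the limits, with 3 of them far to the right, and grey points inside the limits are the 12 genes left out for their level at 42 or 66 h.

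In 40 of the 69 genes, or 58.0%, all 3 libraries of 24 h were above every library of the other times. The share was 7% over the 1844 genes that reached the level, but the rule used the means of the same libraries, so nothing is read from this difference. Against the 18 h libraries alone the 24 h libraries were separate in 42 genes, against those of 42 h in 54 and against those of 66 h in 55. Of the 23 genes with a 24 h mean of at least 300 FPKM, 15 were separate from all other libraries, and of the 46 less abundant genes 25 were. For single times and for these classes of level no share over all genes was taken, and nothing is read from the counts. The lowest 24 h value was that of replicate 1 in 41 genes, of replicate 2 in 15 and of replicate 3 in 13, whereas replicate 1 was the lowest in 37% of the genes that reached the level. The peak was thus lower in 24 h replicate 1 than in the other two in most of these genes.

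The number of reads behind each value could be recovered for part of the set, because the low FPKM values of a gene are whole multiples of what 1 read is worth. The fewest whole reads that match the values were found for 51 of the 69 genes, 45 of them among the 46 genes under 300 FPKM at 24 h, and the true number could be a multiple of them. Over these 51 genes the median was 6 reads per 24 h library, and the range 0.67 to 50.3. There were 16 genes with a mean under 5 reads per 24 h library, 18 with 5 to 10, and 17 with 10 or more. The 24 h libraries were above all others in 4, 9 and 15 of these genes, and the share over all genes with as many reads was not taken. The median FPKM of 1 read was 23.1 in the set, against 14.4 in 947 other genes that reached the level and 13.8 in 103 of the 197 genes with a held rise. Reads were recovered for 73.9% of the set and for 54.1% of all genes that reached the level, so unlike parts are compared. The difference was not tested. At 23.1 FPKM per read, 5 reads are enough for a gene to reach 100 FPKM in a library. These worths of 1 read are those in 24 h replicate 3, the library of lowest depth. Relative to it, the depth was 1.00 to 1.11 at 24 h and 1.08 to 1.21 at 18 h. It was 1.38 to 1.43 at 42 h and 1.505 to 1.59 at 66 h, so 1 read is worth more FPKM at 24 h than at these times.

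The largest ratios belonged to genes for which few reads were recovered, and these are the fewest that match. An17g01160 was listed at 0 in all 8 libraries of the other times and at 103, 112 and 115 FPKM at 24 h. The fewest reads that match are 1 in each 24 h library, and equal counts give 1 whatever their true number. An12g07700 was listed at 0 everywhere but in 24 h replicates 2 and 3, at 154 and 158 FPKM, again 1 read each at the fewest. Their ratios rest on the added 10 FPKM and are not folds, and the depth cannot show whether the transcript was absent at the other times. An13g02980 rested on more reads. It was at 27.3, 29.5 and 0 FPKM at 18 h, at 119, 258 and 463 FPKM at 24 h (4, 8 and 14 reads), and was listed at 0 in all 5 later libraries. Its 24 h libraries were all above the others, but they lay far apart from one another.

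An08g08330 had even values and more reads. It was at 35.2, 66.1 and 29.7 FPKM at 18 h, at 144, 157 and 160.03 FPKM at 24 h (15 reads in each library), at 53.9, 44.8 and 23.1 FPKM at 42 h, and at 26.9 and 49.6 FPKM at 66 h. The 24 h libraries lay close together and far above all the others. Their mean of 154 ± 8.46 FPKM (SD, n = 3) was 3.05 times the 18 h mean. An14g02210 was at 83.2, 74.5 and 140.4 FPKM at 18 h, 287, 247 and 286 FPKM at 24 h (19, 15 and 17 reads), 24.3, 58.8 and 133 FPKM at 42 h, and 63.4 and 44.6 FPKM at 66 h. Its 24 h libraries did not overlap with any other, and its levels at the other times spread widely. An12g01620 was at 51.9, 66.8 and 23.4 FPKM at 18 h and at 147, 135 and 163 FPKM at 24 h (13, 11 and 13 reads), after which a single read was found in 42 h replicate 1 and none in the other 4 later libraries.

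The other genes among the 15 largest ratios were An04g09450, An15g01710, An11g10640, An12g08730, An04g03370, An09g05180, An04g01610, An04g03580 and An11g08510, with smaller ratios of 2.41 to 3.09. Their 24 h libraries were separate from all others except in An11g10640 and An04g03580. An04g03370, at 285, 261 and 431 FPKM at 24 h (25, 21 and 34 reads) and at 126 ± 60.6 FPKM at 18 h (SD, n = 3), had the most reads of these. An11g10640 had, at the fewest, 0, 3 and 2 reads at 24 h and 2 reads in 18 h replicate 1, so that its peak may rest on 5 reads. In all, 5 genes were listed at 0 in at least 1 of the 24 h libraries, namely An12g07700, An11g10640, An13g00530, An01g11630 and An09g03390.

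**Figure D3:**
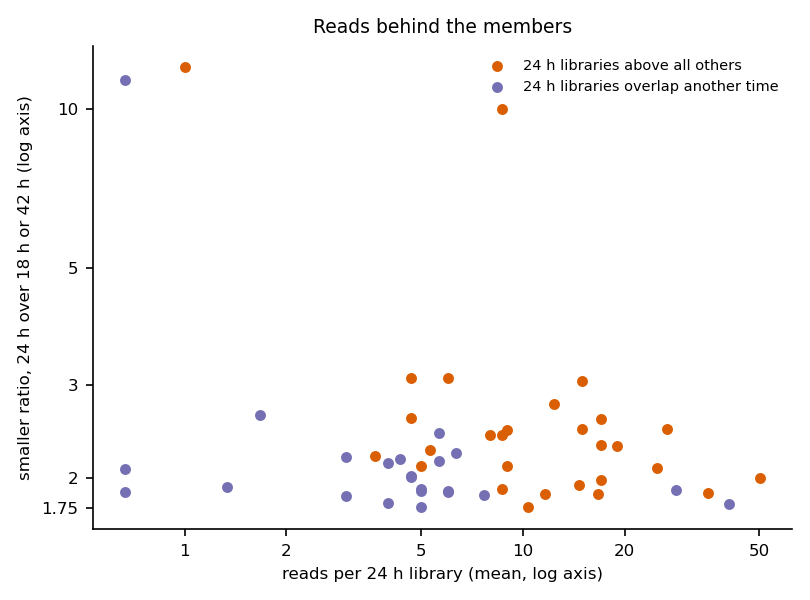
Mean number of recovered reads per 24 h library (x axis, log scale) and the smaller of the ratios of 24 h to 18 h and to 42 h (y axis, log scale) for the 51 genes of the set with recovered reads. Orange points, whose 24 h libraries are above all others, are 15 of 17 at 10 or more reads. Purple points, whose 24 h libraries overlap with another time, are 12 of 16 under 5 reads. The reads are the fewest that match the values. The share over all genes with as many reads was not taken, and nothing is read from these counts.

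The choice was repeated with each 24 h library left out, and the value of that library, which had then no part in the choice, was compared with the 18 h and 42 h means. This was added after the values had been seen, and the 18 h and 42 h libraries stayed the same. Without replicate 1 the rule found 121 genes, and replicate 1 itself was past both ratios in 25 of them (20.7%), against 3.84% of 1873 genes that reached the level. Without replicate 2 it found 75, and replicate 2 was past both in 40 (53.3%, against 6.95%). Without replicate 3 it found 88, and replicate 3 was past both in 36 (40.9%, against 6.13%). The genes had been chosen for low values in the same 18 h and 42 h libraries, so a share above that of all genes at the level is built in and nothing is read from it. The median smaller ratio of the left-out library was 1.36, 1.83 and 1.58 in the same order, against 2.05, 2.02 and 2.07 in the libraries that chose the genes.

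Leaving out any 1 of the 11 libraries, 20 genes were found by the rule every time. These were An04g01610, An04g03370, An04g09450, An05g00900, An07g08020, An07g10200, An08g06650, An08g08330, An09g03940, An09g04030, An09g05180, An11g07340, An12g01620, An12g08730, An13g02980, An14g02210, An15g01430, An16g05330, An17g01160 and An18g04450. In 19 of them the 24 h libraries were separate from all others, with An07g08020 as the exception. The rule had used the same libraries, so nothing is read from this count. An17g01160, with 1 read per 24 h library at the fewest, is among the 20. Of the 20, 5 had a 24 h mean of at least 300 FPKM. Reads were not recovered for 5 of the 20, and 3 of the others had under 5 reads per 24 h library at the fewest.

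After the peak the group means of the genes took different courses. The shares over all genes were not taken for these courses. At both 42 and 66 h, 34 genes were between 43% below and 75% above their 18 h mean. This counts An17g01160 and An12g07700, which were listed at 0 at 18, 42 and 66 h, and leaves 32 genes with an 18 h level. Of the 34, 12 were genes with a 24 h mean of at least 300 FPKM. An07g10200, An05g02330, An07g10180, An07g07350 and An01g13680 were in this group. In 15 genes, 4 of them at 300 FPKM or more at 24 h, the level was at least 43% below that of 18 h at both times. These were An11g07340, An11g07350, An16g05330, An18g03810, An18g04450, An05g00900, An09g03940, An12g01620, An04g01610, An13g02980, An13g00530, An09g00650, An09g03390, An12g10170 and An01g13110. Of these 15, An18g03810, An09g03940, An13g02980, An13g00530, An09g00650, An09g03390, An12g10170 and An01g13110 were not called lower at either time in the test given below. An13g00530 and An09g03390 had, at the fewest, 1 read in a single 18 h library, and they had 0 reads at 42 and 66 h. The other 20 genes were within the range at 1 of the times only.

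An05g00900 and An18g04450 show the second course with good separation. An05g00900 was at 75.5, 74.2 and 99.2 FPKM at 18 h, at 144, 202 and 206 FPKM at 24 h (21, 27 and 27 reads), at 16.5, 5.32 and 33.0 FPKM at 42 h, and at 9.59 and 5.06 FPKM at 66 h. All 24 h libraries were above all 18 h libraries, and all later libraries were below them. An18g04450 was at 122, 102 and 168 FPKM at 18 h, 251, 258 and 296 FPKM at 24 h (17, 16 and 18 reads), 23.8, 57.6 and 47.5 FPKM at 42 h, and 10.4 and 21.9 FPKM at 66 h. Its groups did not overlap between 18, 24 and the later times either.

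Some 42 h or 66 h means were above the 18 h mean, but none of these differences passed the test given below for all genes. An15g01710 and An11g08510 had 66 h means of 1.76 times the 18 h mean each, the only ones more than 75% above it, and no gene was that far above it at 42 h. An12g06100 was at 154, 73.6 and 57.7 FPKM at 18 h, 409.8, 405 and 311 FPKM at 24 h (22, 20 and 15 reads), 165, 204 and 105 FPKM at 42 h, and 104 and 124 FPKM at 66 h. Its 24 h libraries were separate. Its 42 h mean was 1.60 times its 18 h mean, and its 18, 42 and 66 h libraries overlapped.

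Over the set, the 42 h mean was below the 18 h mean in 51 genes and above it in 16, and the 66 h mean was below in 52 and above in 15. The remaining 2 genes, An17g01160 and An12g07700, were listed at 0 at all of these times. The median log2 ratio to 18 h was -0.39 at 42 h and -0.51 at 66 h, where all genes that reached the level had -0.12 and -0.19. The rule limits these ratios from above only, so a median below that of all genes follows in part from the choice. Every 42 h library was below every 18 h library in 14 genes, or 20.3%, and this held for 27.8% of the genes that reached the level. For the 66 h libraries it was 21 genes, or 30.4%, against 35.7%. These shares use values that the rule also used, and their difference was not tested.

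**Figure D4:**
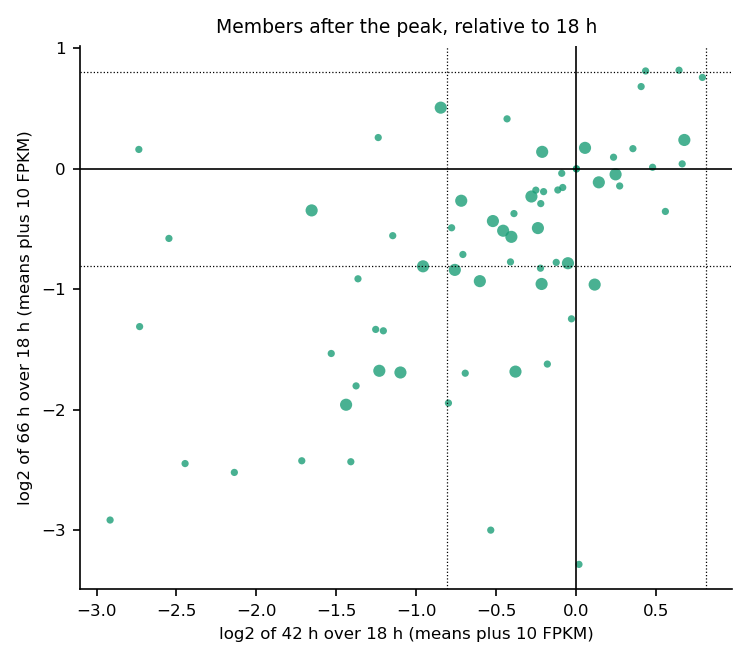
Log2 ratio of the 42 h mean (x axis) and the 66 h mean (y axis) to the 18 h mean, after adding 10 FPKM, for the 69 genes, with large points for a 24 h mean of at least 300 FPKM and dotted lines at 75% above and 43% below. The 15 genes in the lower left field had lower means than at 18 h at both times, and the 34 in the central field lay between these lines.

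Between 42 and 66 h the genes moved in both directions. The rule names no ratio of these times, although both means enter it through their limits. The 66 h mean was below the 42 h mean in 41 genes and above it in 23, with a median log2 ratio of -0.08 against -0.02 over the genes that reached the level. After adding 10 FPKM, the 66 h mean was at least 43% below the 42 h mean in 10 genes and at least 75% above it in 7. These 17 genes are 24.6% of the set, against 16.6% of the genes that reached the level. The 66 h mean was at or below both the 18 h and the 42 h mean in 40 genes. An07g07430 and An16g05540 were among the exceptions. An07g07430 was at 0, 75.4 and 193 FPKM at 42 h and at 100.3 and 389 FPKM at 66 h. An16g05540 was at 27.3, 53.0 and 27.2 FPKM at 42 h and at 189 and 49.9 FPKM at 66 h. In both the 66 h libraries differed from each other by more than the group means did.

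A fit across all genes with limma on log2(FPKM + 1) tested 8693 genes, all 69 of the set among them, and called a gene at a Benjamini-Hochberg adjusted p under 0.05. For 24 h against 18 h it called 6 of the 69 genes, all higher, where 0.587% of the tested genes were called higher. The 6 were An17g01160, An12g06100, An11g07340, An07g10200, An11g07350 and An05g02330. An17g01160 is the gene with 1 read per 24 h library at the fewest. For 42 h against 24 h it called 24 genes, all lower, where 2.8% were called lower. Against 18 h, 6 genes were called lower at 42 h (3.01% of all) and 7 at 66 h (3.13%), and none was called higher at either time (2.99% and 2.91%), where the rule left little room for a higher level. All 4 comparisons enter the choice of the genes, and nothing is read from these counts against the shares over all genes. Without a trend of the variance on the level, the counts were 1 and 9 in place of 6 and 24, and 2 and 4 in place of 6 and 7. Over all genes tested, the counts in the same directions fell too, from 51 and 243 to 29 and 80, and from 262 and 272 to 116 and 122. The count of 6 at 42 h was 2 without 18 h replicate 1 and 3 without 42 h replicate 2, where 189 and 214 of all genes were called lower. For 66 h against 42 h, 1 gene was called, An01g14080, which was listed at 0 in both 66 h libraries and had 18 reads over all libraries, where 0.426% of the genes were called in either direction. This call was lost (0 genes) with a pseudocount of 10, with the replicate block and in a fit of both groups alone.

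Some genes of the set were neighbours. Of the 67 genes with a place in the reference order, 6 (8.96%) lay within 5 places of another gene of the set on the same scaffold, in 3 pairs, and this share was not compared with one over other genes. An11g07340 and An11g07350 stand next to each other, and both peaked at 24 h and ended below their 18 h level. The next listed locus, An11g07380, was too low to be chosen but also had its highest mean at 24 h, with means of 10.1 ± 8.72 FPKM at 18 h and 73.4 ± 13.0 FPKM at 24 h (SD, n = 3 each), 0 in all 42 h libraries and 5.54 ± 7.83 FPKM at 66 h (n = 2). Unlike in the pair, its 18 h and 66 h values overlapped, near 0. The loci An11g07310 and An11g07330 on the other side stayed under 10 FPKM in every group mean.

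An07g10180 and An07g10200 are 2 places apart, and both were back within the range of 43% below to 75% above the 18 h level at 42 and 66 h. The gene between them, An07g10190, had no peak, with means of 239 ± 110, 209 ± 46.0, 287 ± 25.4 and 336 ± 50.1 FPKM at 18, 24, 42 and 66 h (SD, n = 3, 3, 3 and 2). An09g04020 and An09g04030 also stand next to each other. An09g04030 was at 34.1 ± 18.3 FPKM at 18 h and 146 ± 28.9 FPKM at 24 h, with separate 24 h libraries. An09g04020 had 1, 6 and 6 reads in the 24 h libraries, which overlapped with those of 18 h. The abundant gene beside this pair, An09g04040, was at 2722 ± 311, 3298 ± 748, 2388 ± 380.03 and 1802 ± 56.7 FPKM (SD, n = 3, 3, 3 and 2), and its 24 h mean was 1.21 times the 18 h mean.

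**Figure D5:**
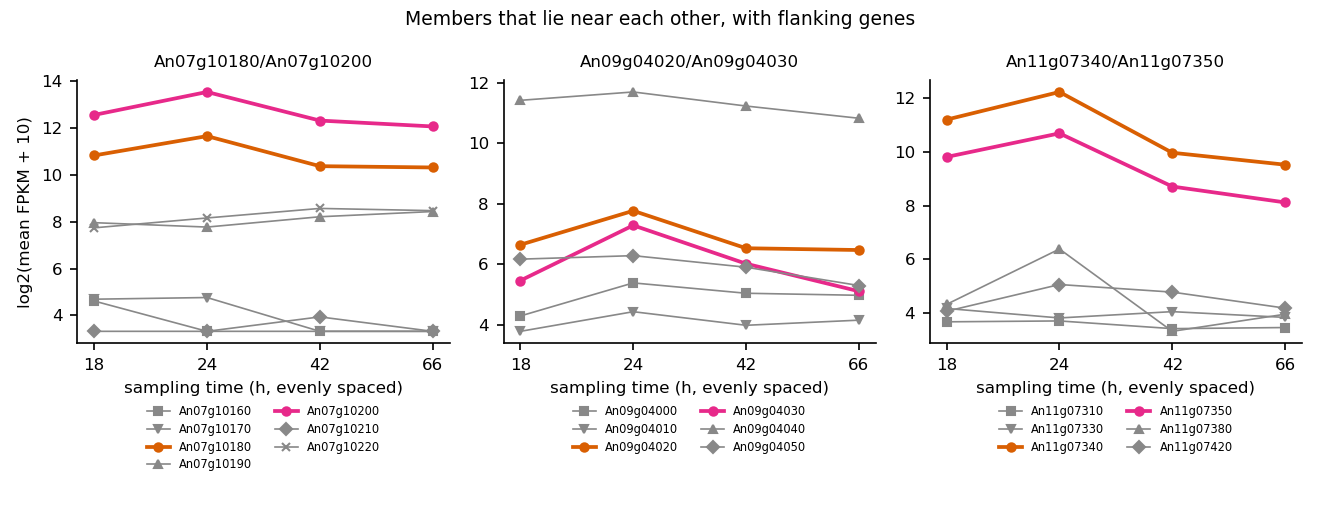
Mean level as log2(FPKM + 10) at each sampling time (evenly spaced) for the 3 pairs of chosen genes that lie near each other (thick coloured lines) and up to 2 genes on each side or between them (thin grey lines). In the An11 panel the grey line of An11g07380 rises from 10.1 to 73.4 FPKM at 24 h and is at 0 at 42 h, while An07g10190, between the An07 pair, shows no peak.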

How the data were processed

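The authors deposited FPKM values, 1 per gene and library, for 10445 genes in 4 tables. RSEM is named in the submitters' processing notes. Its version, aligner, build and annotation are not stated there, and no scaling between libraries is recorded. The FPKM of a library summed to 968822 to 1100826, and 5399 to 5959 genes were above 0. FPKM shifts as a whole when a few abundant transcripts change.

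From these values, group means, ratios and the choice of genes were computed with pandas 2.3.3 and numpy 2.4.6 in Python 3.11.15, and figures were drawn with matplotlib 3.10.9. The members, lists and tests were chosen with earlier results of these data known. Relative depth was read from the commonest ratio between low values of pairs of libraries (1.00 at 24 h replicate 3 to 1.59 at 66 h replicate 1). A gene's reads were the fewest whole numbers, up to 30 for its lowest value, that matched its values within 0.06. This succeeded for 7811 genes and was tested on simulated data.

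The fit across genes used limma 3.58.1 (R 4.3.3) on log2(FPKM + 1) for genes that reached 1 FPKM in 2 or more of the libraries. All 11 libraries entered with a mean per time, the variance was moderated with a trend on the level, and p-values were adjusted over all genes tested. The fit was tested on simulated data, with changes only in genes with a mean of at least 300 FPKM, so changes in less abundant genes were not covered. Alternatives were other pseudocounts, filters, scalings and limits, no trend, a replicate block, only the groups compared, and each library left out.

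Genes were named by a rule: the 15 with the largest smaller ratio, the 8 with the highest 24 h mean, those nearest the limits and neighbours within 5 places. The others were named after their values were seen. Groupings by protein name, promoter motifs and protein features were planned and not analysed here. Gene order came from the RefSeq table of ASM285v2, in which 10417 of the genes were found; none of its coordinates were used.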

Additional observations from a re-analysis of the deposited data

How the results depend on the processing

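The rule found 69 genes, and 66 to 121 when 1 library was left out, with the 121 of the choice without 24 h replicate 1 holding 62 of the 69. It found 149 genes with the level at 50 FPKM, 36 with it at 200 FPKM, 164 with a ratio of 1.5 and 38 with a ratio of 2. Rescaling to the same FPKM sum, which shifts 42 h against 24 h by 0.15 in log2, left 57, and median-of-ratios scaling left 48, all of them among the 69. Abundant genes described above were among those lost, namely An05g02330 and An07g10180 under both scalings and An07g07350 under median-of-ratios scaling. With group medians 96 were found, 45 of them shared. All 24 h libraries were above every other library in 40 of the 69 genes. The count was 36 after rescaling to the same FPKM sum and 35 after median-of-ratios scaling. It was 40 to 51 when 1 library was left out, which can only keep or raise it, so nothing is read from that range.

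In the limma counts, no trend in the variance gave 1 in place of 6 genes for 24 h against 18 h, 9 in place of 24 for 42 h against 24 h, 2 in place of 6 for 42 h against 18 h and 4 in place of 7 for 66 h against 18 h. Over all genes tested, the counts in the same directions fell too, from 51, 243, 262 and 272 to 29, 80, 116 and 122. With 1 library left out the counts in the set were 4 to 7, 16 to 23, 2 to 7 and 5 to 8. Those over all genes were then 36 to 69, 153 to 235, 189 to 280 and 152 to 279. The 1 gene called between 66 and 42 h remained a count of 1 in every such fit, and was 0 with a pseudocount of 10, under the replicate block and when fitted on these groups alone. Replicates that share a number did not deviate together (mean r -0.01, 15 pairs), and a fit that blocks on the replicate number gave 5, 21, 0, 5 and 7 in the order 24 against 18, 42 against 24, 66 against 42, 42 against 18 and 66 against 18 h. Over all genes, that fit called 25 higher, 174 lower, 0 higher and 4 lower, 209 lower and 194 lower in the same order. The cause of these differences was not tested.

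The smaller log2 ratio of single genes changed sign in 3 of 1035 repeats: -0.23 for An01g11630 without 24 h replicate 1, and -0.028 for An01g14080 and -2.45 for An13g00530 without 24 h replicate 2. Leaving out 1 library each, their ranges were -0.23 to 1.49, -0.028 to 1.42 and -2.45 to 3.50. Over the 3 libraries of 24 h, An01g11630 had 3, 1 and 0 reads, An01g14080 had 1, 6 and 2, and An13g00530 had 0, 2 and 0. The smaller ratio stayed at or above the limit in all 15 repeats in 25 of the 69 genes. Of the 1035 repeats, those without a 66 h library could not change it, since the 66 h mean has no part in this ratio. Leaving out an 18 h or 42 h library could also leave it as it was, where the other ratio stayed the smaller. This held for An01g00470 without each 42 h library in turn and for An05g02330 without each 18 h library in turn. The counts of 3 and 25 include such repeats. The depth, a median of 6 reads per 24 h library at the fewest over 51 genes, limits what single genes can show.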
